A study of Mus musculus with 9 samples.

Results

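The 10 genes described here encode enzymes that help proteins fold inside the endoplasmic reticulum (ER): 6 protein disulfide isomerases (P4hb, Pdia3, Pdia4, Pdia5, Pdia6 and Txndc5), 1 ER oxidase (Ero1a) and 3 FK506-binding proline isomerases (Fkbp2, Fkbp11 and Fkbp14). They were chosen by name, as genes that the array's annotation ties to a probe set of their own, out of 9697 genes tested. The choice was made with earlier results of these data known. Expression was measured in quadriceps femoris, a thigh muscle, of 9 female mice labelled C57Bl/6 HT transgenic, whose transgene encodes a self MHC class I protein and is held off by doxycycline. Control mice (n = 3) received doxycycline throughout and were killed at 35 days of age. Early mice (n = 3) lost the drug at 21 days and were killed at 35 days, so the transgene was on for 2 weeks. Late mice (n = 3) lost the drug at 35 days and were killed at 50 days by their labels, or at 49 to 50 days by the treatment protocol. The strain label is shared by all 3 groups, while the protocol describes controls as littermates with a single transgene, so a difference in genotype, drug or transgene expression cannot be told apart in either comparison with controls. Late mice were also older than both other groups, and age and time of induction cannot be told apart there. The promoter that drives the transgene is not given in the sources used here.

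Proteins that enter the ER are held in shape by disulfide bonds between cysteines. Protein disulfide isomerases form these bonds and exchange wrong ones, and Ero1 oxidases pass the electrons they collect on to oxygen. Bonds that precede a proline turn slowly between cis and trans forms, and ER FK506-binding proteins and cyclophilins speed this turn. MHC class I molecules depend on this machinery, because their heavy chain and its partner chain are both disulfide-bonded and Pdia3 is a part of the complex that loads them with peptide. Many of these enzymes are known targets of the unfolded protein response, in which the factors ATF6 and XBP1 bind short elements near the start of ER genes.

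The promoters of the members are shown because most of these genes moved together, as described further on. RefSeq sequence of build GRCm38.p6 covers 16 annotated starts of all 10 members, and windows of 280 bases were searched, from 250 before a start to its first 30 transcribed bases. The ER stress element was searched as CCAAT and CCACG with 9 free bases between them, its second form as ATTGG and CCACG with 1 free base between them, the core of the XBP1 site TGACGTGG and a shorter core of it TGACGTG, each on both strands. The short core lies within the longer one, and the complement of the CCACG of the stress element ends the longer one, so these matches overlap. The ER stress element was found in the Pdia6 window alone among the members, with its first base 98 bases before the start, and in 0.116% of all 32851 windows. TGACGTGG was found at 1 of 3 Txndc5 starts, 138 bases before it, and in 0.648% of all windows. TGACGTG was found there and, on the reverse strand, from the first transcribed base of 1 of 2 Fkbp11 starts, and in 1.93% of all windows. The second form of the stress element was found at 0 member starts and in 0.0365% of all windows. An amino acid response element, TGATGNAA, was found at another Txndc5 start and in 3.81% of all windows, and the parts CCACG and CCAAT alone were found at 9 and 8 of the 16 member starts and in 31.1% and 36.1% of all windows. Matches depend on base composition, and these windows were 70.4% G or C for Pdia6, 76.4% for the Txndc5 start and 59.6% for the Fkbp11 start. The windows that hold the stress element, TGACGTGG or TGACGTG follow, 5′ to 3′ on the gene's strand, with those matched letters in capitals (TGACGTG reads CACGTCA in Fkbp11, from the other strand); the Pdia4 window, which holds CCAAT but none of these and is 66.8% G or C, is set beside them because Pdia4 was the member whose rise was called in every alternative.
Pdia6, chr12:17266339-17266618, plus strand: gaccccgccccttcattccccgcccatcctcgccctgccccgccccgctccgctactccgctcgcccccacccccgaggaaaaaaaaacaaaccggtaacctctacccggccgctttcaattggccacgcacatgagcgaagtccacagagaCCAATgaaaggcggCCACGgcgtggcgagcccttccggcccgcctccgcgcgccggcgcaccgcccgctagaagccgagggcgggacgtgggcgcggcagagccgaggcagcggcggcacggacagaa
Txndc5, chr13:38527885-38528164, minus strand: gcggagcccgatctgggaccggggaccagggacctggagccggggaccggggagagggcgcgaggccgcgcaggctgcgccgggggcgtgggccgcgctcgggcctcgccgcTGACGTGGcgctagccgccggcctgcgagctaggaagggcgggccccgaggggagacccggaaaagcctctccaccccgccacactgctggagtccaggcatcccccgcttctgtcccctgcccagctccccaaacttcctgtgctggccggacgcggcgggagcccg
Fkbp11, chr15:98727598-98727877, minus strand: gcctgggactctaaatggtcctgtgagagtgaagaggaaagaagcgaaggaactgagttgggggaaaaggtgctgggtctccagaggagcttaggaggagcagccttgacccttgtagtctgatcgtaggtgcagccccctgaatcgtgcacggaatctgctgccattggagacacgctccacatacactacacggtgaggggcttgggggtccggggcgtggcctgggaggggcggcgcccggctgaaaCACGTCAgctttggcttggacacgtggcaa
Pdia4, chr6:47813483-47813762, minus strand: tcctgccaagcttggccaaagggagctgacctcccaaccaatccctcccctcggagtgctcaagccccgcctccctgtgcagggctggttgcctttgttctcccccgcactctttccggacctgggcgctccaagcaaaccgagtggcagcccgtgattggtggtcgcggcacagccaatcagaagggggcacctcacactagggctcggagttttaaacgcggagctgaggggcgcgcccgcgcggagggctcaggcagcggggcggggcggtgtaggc

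Values are deposited log2 expression values, on which a step of 1 doubles the signal; a difference is given with its standard error (SE) and a mean with its SD over 3 arrays. A gene was called changed at a limma p under 0.05 after Benjamini-Hochberg adjustment over all 9697 genes, and its brightest passing probe set stood for it. The members had 19 probe sets, of which 12 exceeded a log2 value of 5 in at least 3 arrays; each of the 10 members had such a probe set, and each would have had one from the control and late arrays alone. Array medians lay between 3.41 and 3.45. Muscle fibre genes such as Ckm and Acta1 were bright in every array, with a summed level over 11 genes of 18.76 to 18.92 on the log2 scale. On the probe set used for it, the class I gene H2-K1 stood at 10.88, 10.47 and 10.21 in the controls, at 14.67, 14.63 and 14.69 in early and at 14.20, 13.11 and 14.31 in late mice, above every control array in both induced groups. On its other passing probe sets the early minus control difference was 5.10 ± 0.34, 7.29 ± 0.74 and 0.61 ± 0.35. On the last of these the groups overlapped, and the difference did not pass by limma over all probe sets (adjusted p = 0.382). Early arrays resembled one another less than control arrays did: an array's mean correlation with its own group over genes was 0.946 to 0.968 in early and 0.986 to 0.99 in control mice.

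The first comparison, of early mice with age-matched controls, asks which of these enzymes changed while the class I protein was made in young muscle. In early mice 6 of the 10 members rose and 0 fell, and the median difference over the 10 was 1.06 (2.08-fold). Fkbp11 (6.42-fold) and Pdia6 (5.91-fold) differed most, then Pdia4 (4.74-fold), Pdia3 (2.56-fold), Txndc5 (2.32-fold) and P4hb (1.87-fold). Over all genes tested 1.19% were called, 0.928% as higher, and the median difference was -0.03. Early and control arrays did not overlap for 7 members, each higher in early mice, against 9.63% of all genes in that direction and 23.6% in either. Muscle was profiled whole, so more cells of a type and more RNA per cell cannot be told apart.

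**Figure D1:**
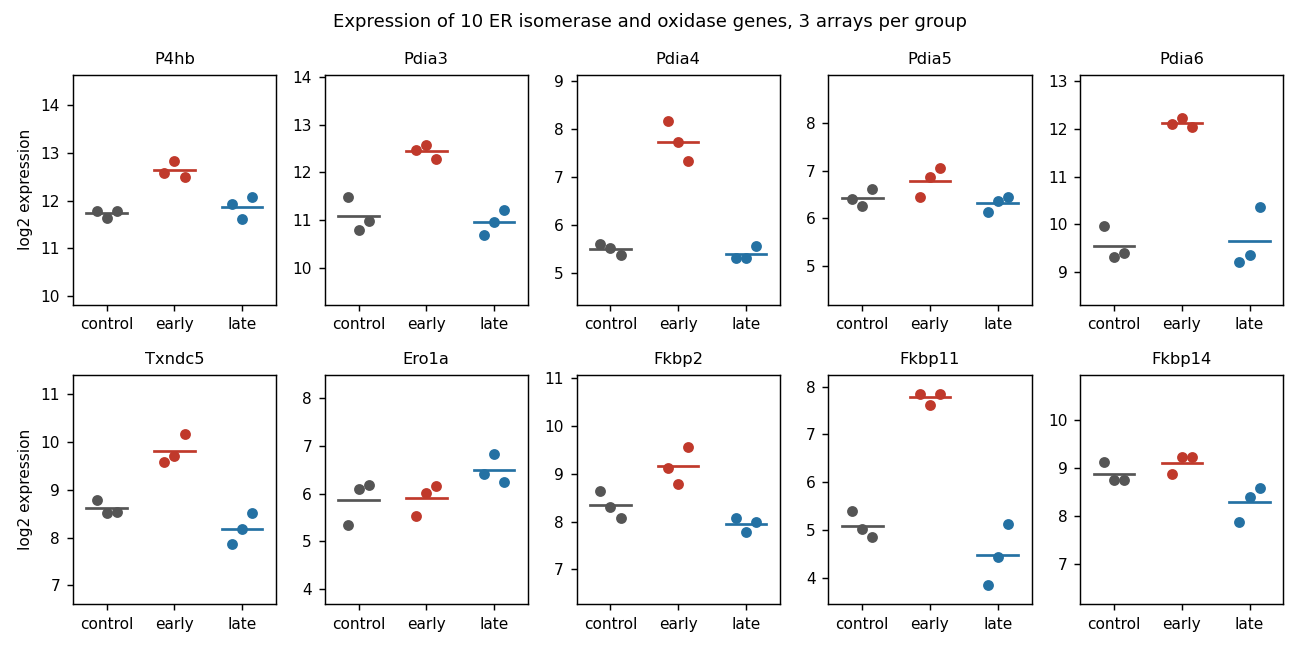
Log2 expression of each of the 10 genes (vertical axis, equal span in every panel) by group (horizontal axis); points are the 3 arrays of a group and bars their mean. For P4hb, Pdia3, Pdia4, Pdia6, Txndc5, Fkbp2 and Fkbp11 the 3 early points lie above all control points, while for Ero1a the late points lie highest.

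P4hb, the founding disulfide isomerase and also a subunit of collagen prolyl hydroxylase (chr11:120560298-120573253), stood at 11.79, 11.64 and 11.78 in controls, 12.59, 12.83 and 12.50 in early and 11.93, 11.61 and 12.08 in late arrays. The early arrays lay above all others, and control and late arrays overlapped. It rose by 0.90 ± 0.16 in early mice (adjusted p = 0.0394). With the replicate number as a block in the limma fit the adjusted p was 0.0901, which did not pass.

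Pdia3, or ERp57, works on glycoproteins together with calnexin and calreticulin (chr2:121413902-121438687). Its values were 11.48, 10.80 and 10.98 in controls, 12.47, 12.58 and 12.28 in early and 10.69, 10.96 and 11.22 in late arrays. The lowest early array lay 0.80 above the highest control, and late arrays fell within or just below the control range. The early difference was 1.35 ± 0.21 (adjusted p = 0.024). With the replicate number as a block in the limma fit the adjusted p was 0.0717, which did not pass.

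Pdia4, or ERp72, is a disulfide isomerase with several thioredoxin-like domains (chr6:47796141-47813512). Control arrays read 5.60, 5.52 and 5.37, early arrays 8.16, 7.73 and 7.33 and late arrays 5.30, 5.31 and 5.55. Early arrays were spread more widely (SD 0.42) than controls (SD 0.12) but stood clear of them by 1.73. The rise of 2.24 ± 0.21 (adjusted p = 0.00352) ranked 6 by p among all genes.

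Pdia6, or P5, is a disulfide isomerase that binds the chaperone BiP and the stress sensor IRE1 (chr12:17266589-17284785). It read 9.96, 9.31 and 9.40 in controls, 12.10, 12.23 and 12.03 in early and 9.22, 9.37 and 10.35 in late arrays. The early arrays lay close together, 2.07 above the highest control, and late 3 stood above late 1 and 2. The early difference was 2.56 ± 0.30 (adjusted p = 0.0082).

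Txndc5, or ERp46, a disulfide isomerase also known from endothelial and plasma cells (chr13:38500266-38528824), read 8.78, 8.52 and 8.52 in controls, 9.58, 9.72 and 10.17 in early and 7.86, 8.17 and 8.51 in late arrays. Early arrays were the highest and late arrays the lowest, the latter by a margin over controls of 0.01. The early rise was 1.21 ± 0.21 (adjusted p = 0.0379). With the replicate number as a block in the limma fit the adjusted p of Txndc5 was 0.0605, which did not pass. Its second probe set differed by 1.07 ± 0.25 between early and control arrays, which did not pass over all probe sets (adjusted p = 0.0985; 1.02% of all 16048 probe sets were called).

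Pdia5, or PDIR, is the disulfide isomerase known to act on ATF6 (chr16:35397308-35490919). It was at 6.41, 6.26 and 6.61 in controls, 6.44, 6.86 and 7.05 in early and 6.14, 6.35 and 6.44 in late arrays. These groups overlapped. The early difference of 0.36 ± 0.19 did not pass (adjusted p = 0.329), with a 95% interval from 0.96-fold to 1.72-fold.

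Among the proline isomerases Fkbp11, a membrane-bound enzyme of secretory tissues (chr15:98724368-98728198), read 5.40, 5.02 and 4.85 in controls, 7.85, 7.62 and 7.85 in early and 3.86, 4.42 and 5.12 in late arrays. Early arrays were tightly grouped and stood 2.22 above the highest control, while control 3 and 2 late arrays lay under the level of 5 used as a floor. The probe set used is shared between transcripts, and the other Fkbp11 probe sets were above 5 in no array and were not tested. The early difference was 2.68 ± 0.30 (adjusted p = 0.00708), or 6.20-fold when values under 5 were raised to 5.

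Fkbp2, a small soluble isomerase of the ER lumen (chr19:6977737-6980464), read 8.64, 8.30 and 8.09 in controls, 9.13, 8.78 and 9.57 in early and 8.08, 7.79 and 8.00 in late arrays. Early arrays lay above controls by a margin of 0.14. The difference of 0.82 ± 0.22 did not pass over all genes (adjusted p = 0.137).

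Fkbp14, which acts on procollagen and is mutated in a form of Ehlers-Danlos syndrome (chr6:54577602-54597344), read 9.14, 8.75 and 8.76 in controls, 8.87, 9.24 and 9.23 in early and 7.89, 8.39 and 8.58 in late arrays. Early and control arrays overlapped, and late arrays were the lowest. The early difference of 0.23 ± 0.21 did not pass (adjusted p = 0.576).

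**Figure D2:**
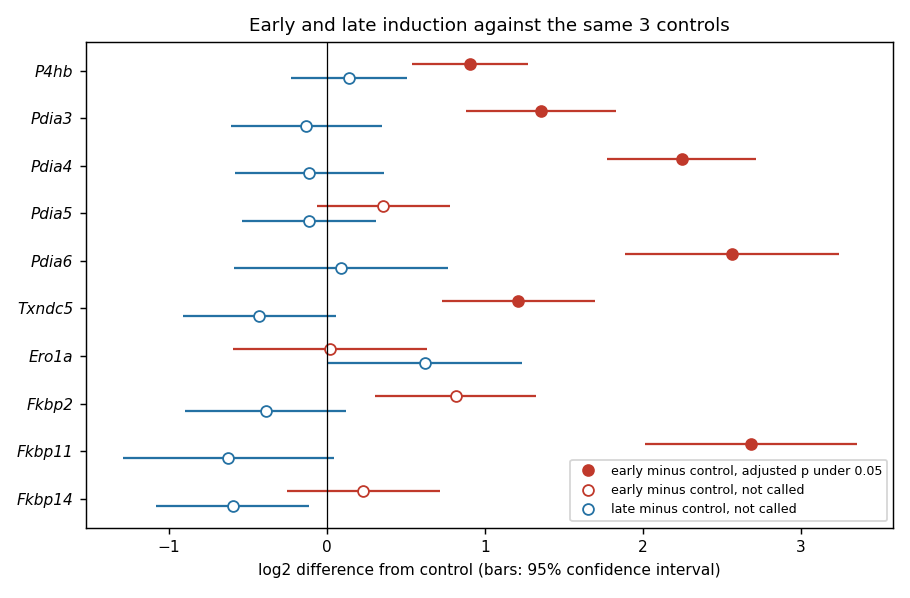
Log2 difference of each gene from the 3 controls (horizontal axis) in early and late mice, with 95% confidence intervals; filled points were called at an adjusted p under 0.05. The 6 filled points, from 0.90 for P4hb to 2.68 for Fkbp11, all belong to early mice, and no late point is filled.

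Ero1a, the oxidase that recharges disulfide isomerases (chr14:45283087-45318572), had probe sets that did not move alike. On the brightest of them values were 5.35, 6.10 and 6.18 in controls, 5.53, 6.01 and 6.16 in early and 6.42, 6.83 and 6.24 in late arrays. Early and control arrays overlapped fully there, and the difference was 0.02 ± 0.27 (adjusted p = 0.969). On the second one values were 5.20, 4.93 and 5.04 in controls, 6.41, 6.15 and 5.51 in early and 4.91, 5.42 and 5.21 in late arrays. Early arrays were the highest on that probe set, by 0.97 ± 0.24 over controls, without passing over all probe sets (adjusted p = 0.12). Another probe set was above 5 in 1 array, late 2, and was not tested. The direction for Ero1a in early muscle is therefore not settled by these probe sets.

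Ero1b, the other ER oxidase, known from insulin-producing cells, was the gene called outside the members among the ER isomerases and oxidases. It read 5.93, 5.58 and 6.05 in controls, 7.39, 7.69 and 8.71 in early and 6.17, 6.59 and 6.78 in late arrays. Early arrays stood highest and late arrays lay above every control as well. The other Ero1b probe sets were above 5 in no array and were not tested. Ero1b rose 4.22-fold in early mice (2.08 ± 0.33, adjusted p = 0.0251), and the late difference of 0.66 ± 0.33 did not pass (adjusted p = 0.336). Whether Ero1a and Ero1b differed in their response was not tested.

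**Figure D3:**
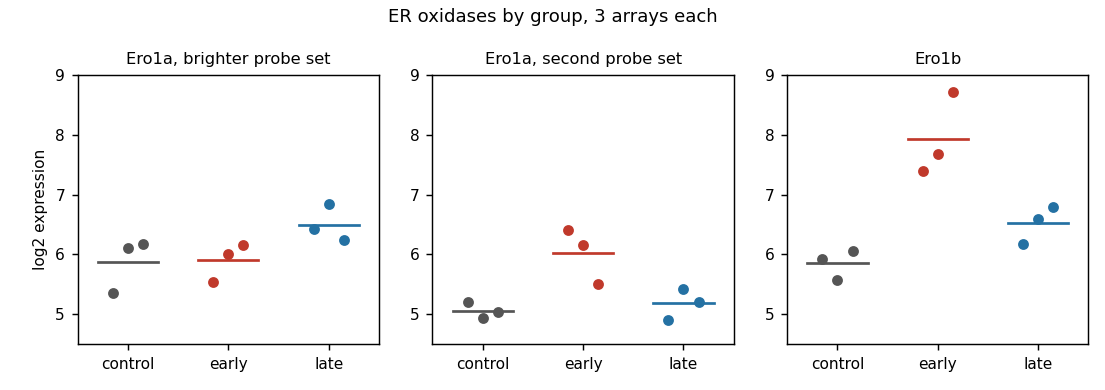
Log2 expression (vertical axis) of the 2 tested Ero1a probe sets and of Ero1b by group (horizontal axis), with 3 arrays a group and their mean as a bar. Early points overlap the controls on the first Ero1a probe set, lie above them on the second, and lie between 7.39 and 8.71 for Ero1b.

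The calls in early mice changed when single arrays were left out. Leaving out an array also leaves fewer arrays for the fit, so dependence on a particular array cannot be told apart from this. Leaving out control 1 gave 4 members called, while leaving out control 2 or control 3 gave 1; calls over all genes fell from 115 to 37 (0.383%), 6 (0.0621%) and 13 (0.134%) in these settings. The count was 3 when early 1 was dropped, 2 when early 2 was dropped, 6 when early 3 was dropped, and 5 when any 1 late array was dropped. Calls over all genes numbered 60 (0.622%), 21 (0.218%) and 1756 (18.1%) without early 1, 2 and 3. They numbered 112 (1.16%), 67 (0.694%) and 81 (0.838%) without late 1, 2 and 3. The 1 member called without control 2 or control 3 was Pdia4. Over all 20 alternatives Pdia4 was called in 20, with a difference of 2.03 to 2.45, Pdia6 in 17 (2.44 to 2.78), Pdia3 in 13 (1.21 to 1.60) and Txndc5 in 11 (1.04 to 1.33). Fkbp11 was called in 17 of 19 (2.56 to 2.84) and P4hb in 9 of 19 (0.81 to 1.07), 1 alternative having no probe set for either. Fkbp2, Pdia5 and Fkbp14 were called with array weights alone, a setting that called 34.4% of all genes.

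**Figure D4:**
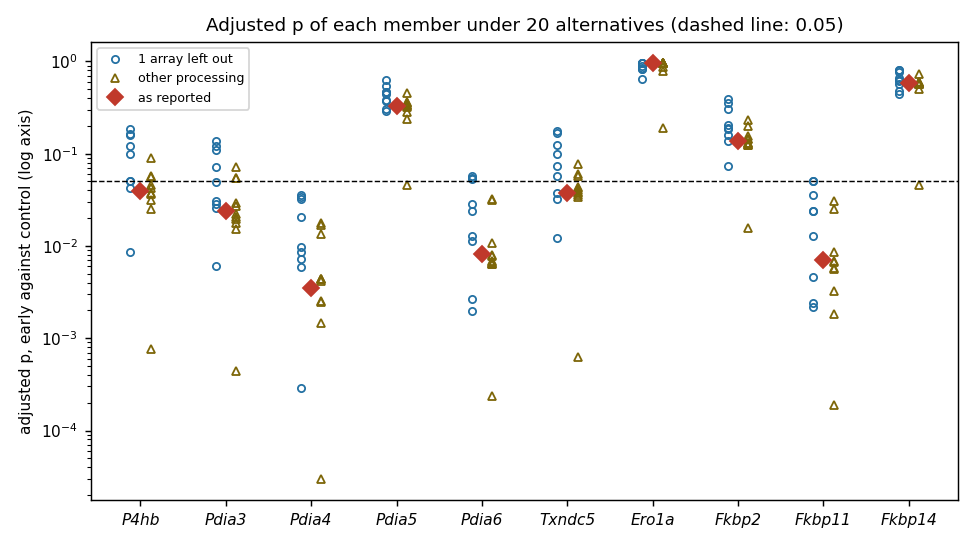
Adjusted p for early against control (vertical log axis) of each gene as reported (diamonds), with 1 array left out (circles) and under other processing (triangles), 20 alternatives in all and 19 for P4hb and Fkbp11; the dashed line marks 0.05. Pdia4 stays under the line in each, whereas P4hb, Pdia3 and Txndc5 lie on both sides of it.

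The rise was seen in each of the 3 early arrays. The median over the 10 members, taken as the difference from the control mean, reached 0.91, 1.10 and 1.21 in early 1, 2 and 3. The same median lay at -0.31, -0.19 and 0.04 for the late arrays. Pdia6 lay 2.55, 2.67 and 2.47 above the control mean in these early arrays and Fkbp11 2.76, 2.53 and 2.76. Markers of other cell types were read array by array beside these medians. A summed level adds linear signals, so the brightest genes of a list weigh most in it. The summed level of 11 macrophage markers was 13.87, 13.49 and 12.52 on the log2 scale in early 1, 2 and 3 and 12.68 to 13.06 in controls, with late arrays at 12.26 to 12.88; its part in the members' values was not tested, and 10 of the 11 markers were tested, with Itgam above 5 in no array. Cd68 among them read 12.06, 11.17 and 6.23 in early 1, 2 and 3. Over the 10 tested macrophage markers the median early minus control difference was 0.19, with 8 positive, 2 negative and 0 called. Of 10 plasma and B cell markers, listed because such cells are rich in ER enzymes, 9 were on the array and 2 were tested. Cd79a, Cd79b, Ms4a1, Mzb1, Pou2af1 and Tnfrsf17 were above 5 in no array. The summed level of the 9 was 7.81, 8.45 and 11.01 in early 1, 2 and 3. It was 10.66 to 11.22 in controls and 8.80 to 12.32 in late arrays. Ighm alone read 6.05, 7.12 and 10.92 in early 1, 2 and 3, so this sum mostly follows Ighm where Ighm is bright. The summed level of 9 fibroblast markers was 14.85 to 15.19 in controls, 14.79 to 15.23 in early and 14.73 to 15.02 in late arrays. Dcn was the brightest of these. The median difference of the 9 genes from controls was -0.32 in early and -0.43 in late mice, with 0 called. That of the 4 adipocyte markers on the array, of 6 listed, was 12.37 to 13.42 in controls, 11.14 to 11.61 in early and 11.59 to 12.97 in late arrays, lower in each early array than in each control; its part in the members' values was not tested.

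The wider family was described from lists of related genes. Of 18 other disulfide isomerase family proteins 13 were tested and 0 were called in early against control by limma, with 3 at an unadjusted p under 0.05 and a median of 0.07. Over all genes 1797 of 9697 had an unadjusted p under 0.05 in that comparison, the share to set beside this and the later lists. Txndc11, a membrane protein that helps oxidase enzymes mature, differed by 0.98 ± 0.21 (adjusted p = 0.077), and Erp44, which retrieves Ero1 and unfinished proteins to the ER, by 0.74 ± 0.16 (adjusted p = 0.0736). Tmx3, a membrane-bound isomerase, differed the other way, by -0.57 ± 0.15 (adjusted p = 0.133). Of 9 other enzymes of ER thiol oxidation 8 were tested; 1 rose, Ero1b, and the median was 0.19. Prdx4, a peroxidase that feeds oxidising power to isomerases, differed by -0.33 ± 0.17 and Gpx7, another ER peroxidase, by 0.28 ± 0.19, and neither passed. Of 5 other ER proline isomerases 4 were tested and 0 were called, with 0 at an unadjusted p under 0.05; the median was 0.33, with Fkbp7 at 0.59 ± 0.35, the cyclophilin Ppib at 0.57 ± 0.30 and the cyclophilin Ppic at -0.33 ± 0.23. Together 1 of these 25 tested genes was called, against 6 of the 10 members. Without early 3, where 18.1% of all genes were called, that count was 7. It was 0 without control 1, 2 or 3, early 2 or late 2. Members and lists were chosen with earlier results of these data known, so these counts describe them and test no difference between them.

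Related enzymes outside the ER lumen were read in the same way. Of 19 proline isomerases of cytosol, nucleus and mitochondria 13 were tested and 0 were called, with 0 at an unadjusted p under 0.05 and a median of 0.01; examples are Fkbp3 (-0.32 ± 0.23), the Hsp90 partner Fkbp4 (-0.21 ± 0.20) and Ppil2 (0.26 ± 0.14). Of 11 genes of the thioredoxin system 10 were tested and 0 were called, with 1 at an unadjusted p under 0.05 and a median of 0.23, among them Nxn (0.91 ± 0.40), thioredoxin Txn1 (0.53 ± 0.25) and its mitochondrial counterpart Txn2 (0.40 ± 0.19). Without early 3, 4 of these 23 genes were called, near the 18.1% of all genes called in that setting.

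**Figure D5:**
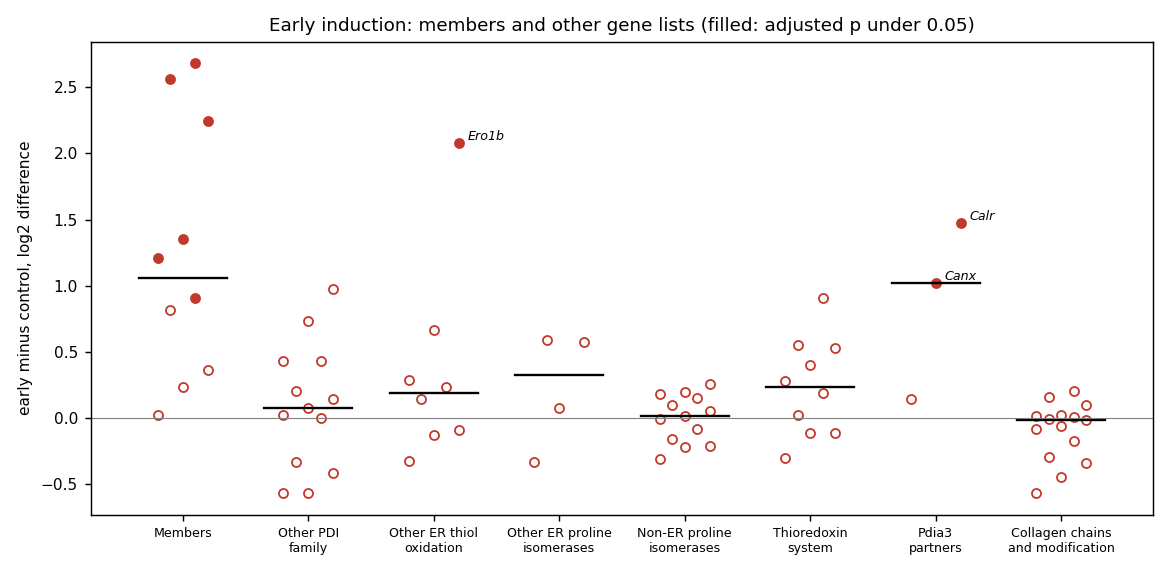
Early minus control log2 difference (vertical axis) of each tested gene in the members and 7 lists (horizontal axis); bars are medians and filled points were called at an adjusted p under 0.05. Filled points are 6 members, Ero1b, Calr and Canx, and the medians of the other isomerase lists lie between 0.01 and 0.33.

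The partners of Pdia3 were also read. Calreticulin (Calr), a lectin chaperone of the lumen, stood at 12.53, 12.45 and 12.37 in controls, 13.91, 14.13 and 13.72 in early and 12.12, 12.25 and 13.13 in late arrays, and rose by 1.47 ± 0.25 (adjusted p = 0.0356). Calnexin (Canx), its membrane-bound relative, rose by 1.02 ± 0.15 (adjusted p = 0.0192). Tapasin (Tapbp), which forms a mixed disulfide with Pdia3 in the peptide-loading complex, differed by 0.14 ± 0.22 (adjusted p = 0.763). Thus 2 of these 3 genes rose. The collagen hydroxylase subunits that bind P4hb did not pass: P4ha1 differed by 0.45 ± 0.25 and P4ha2 by 0.04 ± 0.23, and the other 2 listed partners, P4ha3 and Mttp, were not tested. Of 16 genes for collagen chains and their modification, clients and co-workers of P4hb and Fkbp14, 15 were tested and 0 were called in early mice, with 1 at an unadjusted p under 0.05 and a median of -0.02; Col1a1 differed by -0.57 ± 0.18 (adjusted p = 0.163), Col5a1 by -0.45 ± 0.28 and Crtap, part of a prolyl 3-hydroxylase complex, by -0.29 ± 0.21.

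The late mice were compared with these controls too, so both comparisons share the 3 control arrays, and the late one holds the difference in age. None of the 10 members was called by limma, against 0.206% of all genes, and 2 had an unadjusted p under 0.05, as had 1673 of all 9697 genes, a like share; the members' median was -0.12 and that of all genes 0.01. These 2 were Ero1a, higher by 0.62 ± 0.27 (adjusted p = 0.284), and Fkbp14, which differed by -0.60 ± 0.21 (adjusted p = 0.226). Fkbp11 differed by -0.62 ± 0.30 (adjusted p = 0.318), but by -0.10 when values under 5 were raised to 5. Txndc5 was at -0.43 ± 0.21 and Fkbp2 at -0.39 ± 0.22. On the second Txndc5 probe set the difference was -0.78 ± 0.25, with an unadjusted limma p of 0.0116. It did not pass over all probe sets (adjusted p = 0.182). The 95% intervals of the late difference ran from 0.66-fold to 1.70-fold for Pdia6, 0.67-fold to 1.28-fold for Pdia4, 0.66-fold to 1.27-fold for Pdia3 and 0.69-fold to 1.24-fold for Pdia5, and for P4hb (0.14 ± 0.16) from 0.85-fold to 1.42-fold. Late and control arrays did not overlap for 4 members, Txndc5, Fkbp2 and Fkbp14 lower and Ero1a higher, against 31.0% of all genes. The count of members called was 0 in each of the 20 alternatives. Of the 15 tested collagen genes, which Fkbp14 and P4hb serve, 15 had negative values and 0 were called in late mice, with 10 at an unadjusted p under 0.05 and a median of -0.77. For several of them late 1 lay far below late 2 and 3, as for Col6a2 (9.77, 12.04 and 11.96) and Serpinh1 (9.46, 11.06 and 10.75). For Col1a1 the late arrays lay close together (13.33, 13.29 and 13.38).

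The early and late groups were then compared directly; no controls of the late age were analysed here, so this sets levels side by side and not responses to induction. Of the members 8 were higher in early mice, 0 were lower and 2 did not pass, and the median was 1.34 (2.54-fold). Over all genes 11.5% were called, 5.31% as higher, with a median of -0.03. Fkbp11 was 9.89-fold higher (3.31 ± 0.30, adjusted p = 0.0026), or 6.65-fold when values under 5 were raised to 5. Pdia6 (5.56-fold) and Pdia4 (5.12-fold) followed, then Txndc5 (3.11-fold), Pdia3 (2.80-fold), Fkbp2 (2.30-fold), Fkbp14 (1.77-fold) and P4hb (1.70-fold). The arrays of the groups did not overlap for 9 members, Ero1a lower and the others higher in early mice, against 32.1% of all genes in either direction. The exception was Pdia5 (0.47 ± 0.19, adjusted p = 0.115), whose lowest early and highest late arrays were equal at 6.44. Ero1a was the member with a negative value (-0.60 ± 0.27, adjusted p = 0.154), and on its second probe set the value was 0.85 ± 0.24 (adjusted p = 0.055 over all probe sets, of which 11.2% were called).

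Fkbp2 and Fkbp14 were called here but not against controls. Fkbp14 was the least firm of the 8: with the replicate number as a block its adjusted p was 0.0556, and it was called in 10 of 20 alternatives with differences of 0.63 to 0.97. P4hb was called in 12 of 19 and Fkbp2 in 17 of 20. Pdia3, Pdia4 and Pdia6 were called in all 20, Fkbp11 in all 19 that could be run and Txndc5 in 19 of 20. Leaving out 1 array gave 5 members called without early 1 (2.18% of all genes called) or late 2 (1.48%). It gave 6 without control 2 (3.27%), control 3 (4.09%), early 2 (1.67%) or late 1 (3.01%). The count was 7 without control 1 (5.17%), and 8 without early 3 (30.6%) or late 3 (7.5%). In the related lists, genes higher in early than in late mice were Ero1b (1.41 ± 0.33), the secreted thiol oxidase Qsox1 (1.91 ± 0.48), Ppib (1.33 ± 0.30), Erp29 (0.81 ± 0.20), Erp44 (0.60 ± 0.16), the outer-membrane anchored Fkbp8 (0.65 ± 0.16), the spliceosomal cyclophilin Ppil3 (1.13 ± 0.29), Txn2 (0.82 ± 0.19), Calr (1.42 ± 0.25) and Canx (0.79 ± 0.15). Lower were Tmx3 (-0.71 ± 0.15) and Txndc16 (-1.28 ± 0.25). Among the cell markers, C1qa of macrophages was higher (1.70 ± 0.46) in early than in late mice. Smoc2, of fibroblasts, was lower (-0.89 ± 0.17). Over the 10 tested macrophage markers 9 differences were positive and 1 negative, with a median of 0.57. Over the 9 tested fibroblast markers 5 were positive and 4 negative, with a median of 0.12. The part of these markers in the members' values was not tested. Thus 7 of 25 tested ER relatives were called, 5 higher and 2 lower, and 3 of 23 relatives outside the ER, all higher, where 11.5% of all genes were called and 5.31% as higher; the count outside the ER is near that share.

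Across the 9 arrays 9 of the 10 members correlated positively with the members' mean, while Ero1a did not on its brightest probe set; its second probe set, highest in early arrays, was not part of this measure. The correlation with the mean of the members' standardised values was 0.98 for Txndc5 and Fkbp11, 0.97 for Pdia6, 0.96 for Pdia3, 0.93 for Pdia4, 0.90 for P4hb, 0.88 for Fkbp2, 0.85 for Pdia5 and 0.77 for Fkbp14, and -0.38 for the brightest Ero1a probe set; each member is part of that mean, and the arrays share the 3 groups, so these values are a description. Among genes that are no members, the 6 closest to this mean were Clptm1l (Pearson r 0.991), Gmppb, which makes GDP-mannose (0.99), Ostc, a subunit of oligosaccharyltransferase (0.988), Alg12, a mannosyltransferase of the ER (0.985), Tram1, of the translocation channel (0.983), and Arfgap3, of Golgi vesicle traffic (0.981), over 9 arrays. These genes were picked for following a mean that is high in early arrays, so the sign of their early difference was fixed by that choice, and the values only describe them: Arfgap3 (2.11 ± 0.16), Alg12 (1.62 ± 0.20), Gmppb (1.54 ± 0.15), Ostc (1.09 ± 0.18), Clptm1l (0.78 ± 0.14) and Tram1 (0.77 ± 0.16), as early minus control.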

How the data were processed

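RNA of quadriceps femoris from 9 mice was hybridised to 1 Affymetrix array each. The deposited values are log2 expression per probe set from GCRMA, per the submitters' processing notes; no version of it is stated there. GCRMA compresses dim probe sets and equalises the arrays, which hides any change that all genes share. Of 45101 probe sets, 34945 named 1 gene and were no control probe set. Those with a log2 value above 5 in at least 3 arrays (16048) were kept, and the brightest per gene was taken (9697 genes). Symbols were checked by gene identifier against a table of GRCm38.p6, and 0 changed. Coordinates are of that build.

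One model of 3 group means was fitted to all 9 arrays with limma 3.58.1 (lmFit, eBayes) in R 4.3.3, with 6 residual and 2.84 prior degrees of freedom, and p values were adjusted by Benjamini-Hochberg. The fit was tested on simulated data. Exact permutation of 3 against 3 arrays has a smallest p of 0.1, so none is given. The number of arrays limits the precision. Members and lists were chosen with earlier results of these data known. Named were all members, list genes called in any comparison or, where fewer than 3 were called in early against control, those of smallest p up to 3, H2-K1, and the 6 genes most like the members; marker genes describe cell content. Whether replicate numbers pair the arrays was checked from the correlation of same-numbered arrays' deviations from their group means: 0.168, 0.201 and 0.16 for early and late, 0.35, 0.11 and -0.0391 for early and control, and 0.0847, -0.165 and -0.11 for late and control. Early and late arrays of the same number thus correlated positively but weakly in each case. Arrays of unlike number were not compared, so whether replicate numbers pair the arrays is not settled, and the labels do not say. The values given come from the fit without a block. For the members, the blocked value stands beside a result where it changes the call. The alternatives were other filters, probe set choices, normalizations, fits, the block and leaving out each array.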

Additional observations from a re-analysis of the deposited data

Results flagged for a closer look

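For 8 members expression differed between early and late mice, by limma on the 2 groups' levels with adjustment over 9697 genes, of which 11.5% were called. The early minus late log2 differences were 3.31 for Fkbp11 (adjusted p = 0.0026), 2.47 for Pdia6 (0.00578), 2.36 for Pdia4 (0.0026), 1.64 for Txndc5 (0.00654), 1.49 for Pdia3 (0.00961), 1.20 for Fkbp2 (0.02), 0.83 for Fkbp14 (0.0428) and 0.76 for P4hb (0.0269). With the replicate number as a block 7 were called, and the adjusted p of Fkbp14 was 0.0556. Late mice were 50 days old, early mice and controls 35 days, so age and time of induction cannot be told apart in these differences. The class I gene H2-K1 had 4 passing probe sets, and early minus late differed between them. It was 0.79 ± 0.31 on the one used for the gene (adjusted p = 0.112), and, adjusted over all probe sets, 3.29 ± 0.74 (adjusted p = 0.0326), 1.04 ± 0.34 (adjusted p = 0.0751) and 0.14 ± 0.35 (adjusted p = 0.795) on the others. The part of H2-K1 level in the members' differences was not tested.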

How the results depend on the processing

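Over 594 recomputed values of single members (20 alternatives), 529 kept their direction and side of the threshold, 52 lost a call, 3 gained one and 10 changed sign. None of the 10 sign changes was called. For Ero1a in early against control the value was -0.085 with array weights, -0.24 without control 1, -0.03 without early 2 and -0.11 without early 3 (range on leaving out 1 array -0.24 to 0.21), and in early against late it was 0.12 with the mean of its passing probe sets. For late against control Pdia3 turned to 0.095 with array weights, 0.064 without control 1 and 0.0011 without late 1 (range -0.27 to 0.064), and Pdia6 to -0.03 without control 2 and -0.27 without late 3 (range -0.27 to 0.30). Members called in early against control (6 as reported) numbered 3 with no filter, 3 when only the 2 groups compared were fitted and 3 with the replicate block, and 1 to 6 on leaving out 1 array. In early against late (8 as reported) they numbered 4 with only the 2 groups compared (38 of all genes, 0.392%), 7 with the replicate block (11.5% of all genes) and 5 to 8 on leaving out 1 array (1.48% to 30.6% of all genes). Early and control arrays share a number but were not shown to be paired. The reason for the lower count with the block there was not tested. Other ER isomerase and oxidase genes called in early against control (1 as reported) numbered 2 with centred arrays, 13 with array weights, 0 with no filter, 0 with only the 2 groups compared and 0 to 7 on leaving out 1 array; relatives outside the ER (0 as reported) numbered 6 with array weights and 0 to 4 on leaving out 1 array. In the array weights setting the estimation of the weights stopped before its tolerance was reached, and 3335 genes were called in early against control against 115 as reported. With no filter 56 genes were called and with the replicate block 62. P4hb and Fkbp11 have no value without probe sets shared between transcripts. GCRMA leaves 7 member probe sets under the floor, and for these no level is given.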

Other observations

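Fkbp5, a cytosolic proline isomerase known to be induced by glucocorticoids, was singled out after its values were seen. It read 6.88, 7.60 and 7.85 in controls, 8.71, 7.22 and 6.99 in early and 11.92, 9.43 and 8.08 in late arrays. Each late array lay above each control, but over a range of nearly 4 log2 units, and the difference of 2.36 ± 0.87 did not pass (limma, adjusted p = 0.235). Ighm, the IgM heavy chain, also singled out after the fact, split the arrays another way: it read 6.05, 7.12 and 10.92 in early, 7.86, 11.59 and 12.28 in late and 10.99, 10.51 and 11.13 in control arrays.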
